A study of Mus musculus with 22 samples.

Results

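The amyloid precursor protein gene App, its paralogs and the genes of its secretases were followed across 2 brain regions of a mouse model of Down syndrome. The 9 genes are App, Aplp1, Aplp2, Adam10, Bace1, Bace2, Psen2, Ncstn and Psenen. They were found by symbol through the Entrez gene number that names each row of the deposited table. A row was present for 8 of the 9 genes, among 20239 genes with a symbol in 21225 rows. Psenen, a small subunit of γ-secretase, had no row and was not analysed here.

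The study measured gene expression in cerebral cortex and hippocampus of 6 Ts1Cje females and 5 wild-type (WT) littermates, on 22 Affymetrix mouse gene 1.0 ST arrays with 1 array for each animal and region. All animals were 8 to 10 weeks old. The Ts1Cje line had been bred onto C57Bl/6J by repeated crosses of its males, and the WT littermates shared that background. The purpose given by the series is to find genes and pathways that differ between the genotypes in both regions. Ts1Cje mice carry 3 copies of a distal segment of chromosome 16 that begins near Sod1, whose own extra copy is inactive. The segment sits on a translocation chromosome that also lacks a few distal genes of the recipient chromosome. Bace2 lies in the segment, with Dscam and Fam3b as the nearest protein-coding genes in RefSeq order and 65 protein-coding genes between it and Sod1. App lies outside the segment, between Gabpa and Cyyr1, with 72 protein-coding genes between it and Sod1, and keeps 2 copies. The model therefore lacks the extra App copy of human trisomy 21. The remaining genes of the group lie on other chromosomes, at 2 copies in both genotypes: Psen2 and Ncstn on chromosome 1, Aplp1 and Psenen on chromosome 7, and Aplp2, Adam10 and Bace1 on chromosome 9.

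App is a membrane protein of neurons and other cells that is cut in sequence by proteases. α-Secretase cleavage by Adam10 releases a soluble ectodomain, whereas cleavage by the β-secretase Bace1 leaves a stub from which γ-secretase, a complex that contains presenilin, Ncstn, Aph1 and Psenen, liberates amyloid β. Bace2 is a relative of Bace1 that mostly cuts App within the amyloid β stretch, and Aplp1 and Aplp2 are paralogs processed by the same classes of enzymes.

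The deposited values are log2 signals, and 1 unit is a 2-fold change. The table gives 1 value for each gene, so the isoforms of App could not be told apart, and it gives no call of whether a gene was detected. Probes differ between genes, so a level was compared only between arrays for the same gene. The number of arrays limits the precision. Array medians were 7.53 to 7.62 in cortex and 6.91 to 6.95 in hippocampus, and different RNA kits had been used for the regions. Genotypes were therefore compared within a region on the deposited values. Regions were compared on values from which the median of each array had been subtracted (centred values). Centring removes only a shift of the whole array, so region and RNA kit cannot be told apart for any gene. In both regions the arrays of animal 60, a WT, and of animal 64, a Ts1Cje, stood apart from the rest. The SD over genes was 1.86 and 2.06 in the cortex and hippocampus arrays of animal 60 and 1.95 and 1.98 in those of animal 64, against 2.14 to 2.22 in the other arrays. Where leaving out both animals turned the sign of a value printed for the 8 genes or changed a call, both values are given.

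RefSeq start sites (build GRCm38.p6) gave promoter windows for 7 of the 9 genes, with 9 windows in all because Psen2 and Psenen have 2 each. The 150 bases before the start of App and of its paralogs are shown because these 3 genes form 1 family and 2 of them, App and Aplp1, passed the test between regions described further on. They lie at chr16:85173708-85173857, chr7:30445583-30445732 and chr9:31211849-31211998, all on the minus strand, and are written 5′ to 3′ with GC boxes (GGGCGG or its reverse complement CCGCCC) in capitals.
App: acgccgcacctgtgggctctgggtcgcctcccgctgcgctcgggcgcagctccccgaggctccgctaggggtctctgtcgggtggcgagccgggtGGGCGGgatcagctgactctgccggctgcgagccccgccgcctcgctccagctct
Aplp1: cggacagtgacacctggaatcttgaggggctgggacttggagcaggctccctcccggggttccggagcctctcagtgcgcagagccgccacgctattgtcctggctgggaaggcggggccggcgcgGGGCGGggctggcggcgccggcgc
Aplp2: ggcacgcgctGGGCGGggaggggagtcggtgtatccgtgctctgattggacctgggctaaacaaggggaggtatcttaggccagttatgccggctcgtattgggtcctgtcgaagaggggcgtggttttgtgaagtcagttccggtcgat

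Each stretch held 1 GC box. Within 250 bases before the start, a GC box on either strand, overlaps allowed, occurred in 5 of the 9 windows (App, Aplp1, Aplp2, Adam10 and the first Psen2 window), against 32.7% of all 32851 windows of that length. The letters TATAAA or TATATA between 40 and 16 bases before the start were found in 0 of the 9 windows and in 2.73% of all windows. The same 250 bases had a GC content of 70.8% before App, 66% before Aplp1 and 66.4% before Aplp2, and 44.8% to 74% over the 9 windows, against a median of 52.4% for all windows. They held 23, 20 and 22 CpG dinucleotides before App, Aplp1 and Aplp2, where the median window held 6. Letter matches are a description of the sequence and do not show binding.

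The first question was whether App and its processing genes differed between Ts1Cje and WT mice. None of the 8 measured genes passed the test over all genes in either region (limma, Benjamini-Hochberg adjusted p under 0.05). The test called 0.00494% of all genes in cortex and 0.114% in hippocampus. App, at 2 copies, differed by 0.030 (log2) in cortex and by 0.014 in hippocampus. Bace2, at 3 copies, had the largest differences of the 8 genes, 0.33 in cortex and 0.22 in hippocampus, with adjusted p at or near 1 in both. The intervals of Bace2 lay above 0 before adjustment.

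Among the 8 genes the log2 difference, Ts1Cje minus WT, was above 0 for 6 in cortex with a median of 0.029 (0.014 without animals 60 and 64). It was above 0 for 4 in hippocampus with a median of -0.0084. Over all genes tested the medians were -0.0034 and -0.0064, and 48.5% and 46.3% of genes were above 0. An unadjusted p under 0.05 was reached by 1 of the 8 genes in each region, Bace2 both times. Over all genes 263 reached it in cortex and 750 in hippocampus, where 1012 would be expected with no difference anywhere. In bulk tissue, fewer cells of a type and less RNA per cell cannot be told apart.

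**Figure D1:**
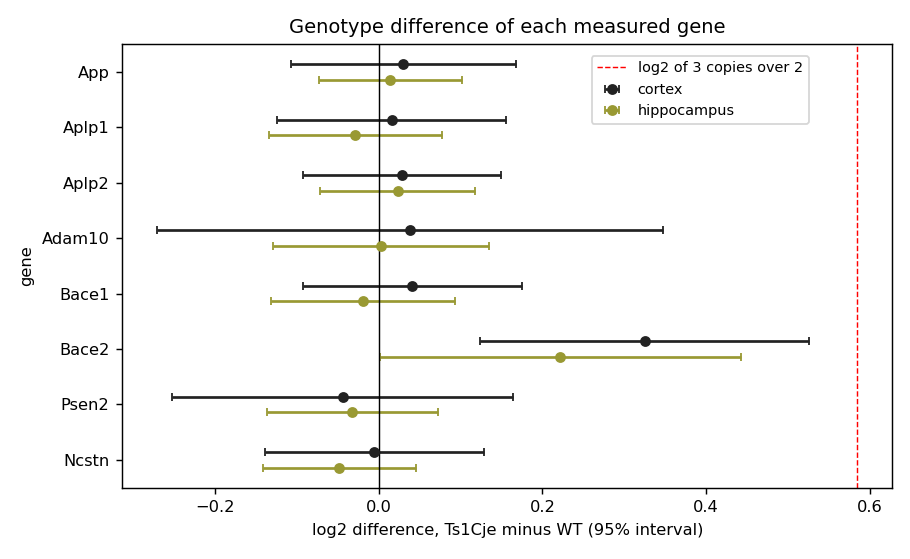
Log2 difference between Ts1Cje and WT for each measured gene in cortex (black) and hippocampus (olive). Points are limma estimates from 6 Ts1Cje and 5 WT arrays per region, bars are 95% intervals, and the dashed line marks 0.585, the log2 of 3 copies over 2. The Bace2 intervals alone lie above 0, and they end below the dashed line.

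App, the substrate of the pathway, had nearly the same signal in both genotypes. In cortex the 5 WT animals (60, 62, 65, 95 and 98) measured 12.63, 12.86, 12.88, 12.82 and 12.84. The 6 Ts1Cje animals (61, 63, 64, 87, 94 and 97) measured 12.89, 12.80, 12.75, 12.89, 12.85 and 12.85. The groups overlapped, and the lowest value of each group belonged to an animal whose arrays stood apart, 60 or 64. The cortex means were 12.81 ± 0.103 (SD, n = 5) in WT and 12.84 ± 0.0536 (SD, n = 6) in Ts1Cje. The log2 difference was 0.030 with a 95% interval of -0.11 to 0.17 (limma, adjusted p = 1).

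In hippocampus App measured 12.29, 12.41, 12.35, 12.38 and 12.38 in the WT animals, in the same order. The Ts1Cje animals measured 12.40, 12.37, 12.34, 12.38, 12.40 and 12.38. All 6 Ts1Cje values lay inside the WT range. The means were 12.36 ± 0.0456 (SD, n = 5) and 12.38 ± 0.0231 (SD, n = 6), and the log2 difference was 0.014 with an interval of -0.074 to 0.10 (limma, adjusted p = 0.9996). Without animals 60 and 64 it was 0.0025 in cortex (interval -0.077 to 0.082) and 0.0029 in hippocampus (-0.063 to 0.069).

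App also varied little between animals. Its SD within groups, pooled over the 4 groups, was 0.0614, and 3.02% of all genes had a lower one. The median gene had 0.190. App was also among the brightest features, between the 99.8 and 99.9 percentile of each array, and this comparison includes dim genes. Without animals 60 and 64 the SD of App was 0.0259 and that of the median gene 0.0968.

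The paralogs likewise did not pass the test. Aplp1, a mainly neuronal member of the family, had means of 12.29 ± 0.0365 (SD, n = 5) in WT and 12.31 ± 0.106 (SD, n = 6) in Ts1Cje cortex, a log2 difference of 0.015 (interval -0.12 to 0.16) that was -0.016 when animals 60 and 64 were left out. Its difference in hippocampus was -0.029 (-0.13 to 0.077). Aplp2, the more widely expressed paralog, differed in cortex by 0.029 (-0.092 to 0.15) and in hippocampus by 0.023 (-0.071 to 0.12). For both paralogs the genotypes overlapped in each region.

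Adam10, the main α-secretase of neurons, had a log2 difference of 0.038 in cortex, with the widest interval of the 8 genes, -0.27 to 0.35. The 2 lowest cortex values were the arrays that stood apart, at 9.42 for animal 60 and 9.34 for animal 64. The other WT cortex arrays lay between 9.91 and 9.94 and the other Ts1Cje ones between 9.85 and 10.07. Adam10 was therefore lower in these 2 cortex arrays by more than the spread among the rest of each group. In hippocampus its difference was 0.0026 (-0.13 to 0.13). With these animals left out the differences were 0.044 (-0.063 to 0.15) and 0.034 (-0.052 to 0.12).

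Bace1, the main β-secretase of brain, ranged from 10.34 to 10.51 in WT and from 10.35 to 10.59 in Ts1Cje cortex. In hippocampus it ranged from 9.83 to 10.00 and from 9.80 to 10.00. The groups overlapped almost fully. Its log2 differences were 0.041 (-0.093 to 0.17) in cortex and -0.019 (-0.13 to 0.093) in hippocampus.

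Bace2, the member of the group in the triplicated segment, had the largest separation of the genotypes. In cortex the WT animals (60, 62, 65, 95 and 98) measured 7.42, 7.47, 7.14, 7.33 and 6.98. The Ts1Cje animals (61, 63, 64, 87, 94 and 97) measured 7.62, 7.61, 7.46, 7.65, 7.57 and 7.66. Of the 6 Ts1Cje arrays 5 lay above every WT array, and animal 64 lay just below WT animal 62. Over all genes 0.232% had every Ts1Cje array above every WT array in cortex, and Bace2 was not among them. The share of all genes with at least 5 such arrays was not counted. The means were 7.27 ± 0.207 (SD, n = 5) and 7.59 ± 0.0709 (SD, n = 6). The log2 difference was 0.33 ± 0.0918 (SE), a 1.25-fold difference with an interval of 0.12 to 0.53 on the log2 scale. Its unadjusted p was 0.00436 and its adjusted p over all genes 1 (limma), so it did not pass.

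In hippocampus Bace2 measured 6.65, 6.55, 6.77, 6.40 and 6.71 in the WT animals. The Ts1Cje animals measured 6.79, 6.71, 6.63, 7.04, 6.73 and 7.14. The groups overlapped, with 3 of 6 Ts1Cje arrays above every WT array, and animals 87 and 97 were the highest of the region. Every Ts1Cje array lay above every WT array for 0.38% of all genes in hippocampus, a stricter condition that Bace2 did not meet. The share of all genes with at least 3 such arrays was not counted. The means were 6.62 ± 0.144 (SD, n = 5) and 6.84 ± 0.203 (SD, n = 6), and the log2 difference was 0.22 ± 0.101 (SE), 1.17-fold, with an interval of 0.0010 to 0.44. The unadjusted p was 0.0491 and the adjusted p 0.9996 (limma).

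**Figure D2:**
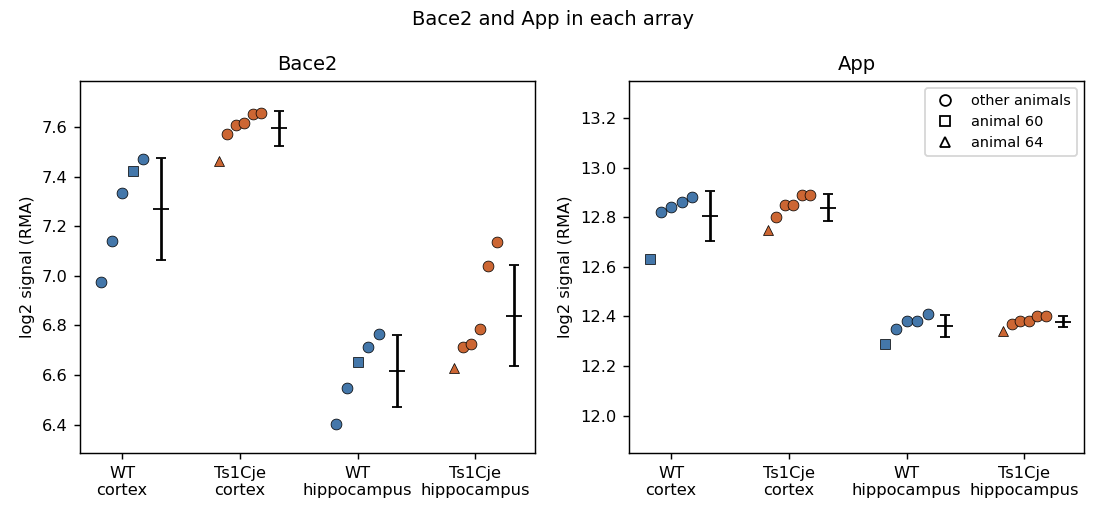
Log2 signal of Bace2 (left) and App (right) in each array, with WT in blue and Ts1Cje in orange; squares are animal 60, triangles animal 64, and bars show mean ± SD (n = 5 WT and 6 Ts1Cje animals per region). Both panels span the same number of log2 units. For Bace2 the Ts1Cje means lie above the WT means with some overlap of arrays in both regions. The App values of the genotypes also overlap in both regions. Each region is to be read on its own, since array medians differ between regions.

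Averaging the 2 arrays of each animal gave the clearest separation of Bace2. The animal means ranged from 6.84 to 7.04 in WT and from 7.05 to 7.40 in Ts1Cje, so the 6 Ts1Cje animals all lay above the 5 WT animals. This held for 0.316% of all genes. The gap was narrow, between 7.038 for WT animal 60 and 7.046 for Ts1Cje animal 64, the animals whose arrays stood apart. The difference was 0.27 ± 0.0694 (SE), 1.21-fold, with an interval of 0.12 to 0.43. Its unadjusted p was 0.00218 and its adjusted p 0.809 (limma). The test of animal means called 0.0593% of all genes and 0 of the 8.

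The Bace2 difference was not called in either region under any alternative tried. In cortex it ranged from 0.25 without WT animal 98 to 0.38 without WT animal 62 when animals were left out in turn. In hippocampus it ranged from 0.16 without Ts1Cje animal 97 to 0.26 without Ts1Cje animal 64. Without animals 60 and 64 it was 0.39 (adjusted p = 0.335) in cortex, 0.27 (0.56) in hippocampus and 0.33 (0.0896) in animal means, by limma. With weights for each array estimated by limma the animal-mean difference of 0.32 ± 0.0533 (SE) passed, at adjusted p = 0.0235.

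The 1.5-fold ratio of 3 copies over 2 is 0.585 on the log2 scale. Both Bace2 intervals ended below it, at 0.53 in cortex and 0.44 in hippocampus. Whether a ratio of signals on these arrays equals the ratio of RNA was not tested. Leaving out animals 60 and 64, the cortex interval was 0.20 to 0.58 and the hippocampus interval 0.031 to 0.52. The Bace2 signal ranked between the 42.0 and 53.3 percentile of all features of its array, a rank that also depends on the probes.

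The animal numbers fall into 2 series, 60 to 65 and 87 to 98, and the labels do not say what they mark. Within 60 to 65 (3 against 3) the Bace2 difference was 0.22 in cortex and 0.054 in hippocampus. Within 87 to 98 (3 Ts1Cje against 2 WT) it was 0.47 and 0.41. It was above 0 in both series and larger in the second, and this difference between series was not tested. With the series as a covariate, a choice made after seeing the data, it was 0.33 ± 0.0942 (SE) in cortex and 0.21 ± 0.101 (SE) in hippocampus.

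Among the γ-secretase genes, Psen2, a presenilin that can form the catalytic core, had a log2 difference in cortex of -0.044 (-0.25 to 0.16) and in hippocampus of -0.033 (-0.14 to 0.072). In WT cortex animal 60 measured 8.35 and the other 4 animals 8.06 to 8.07, and without this animal the cortex difference was 0.014. Ncstn, which binds substrates for the complex, had differences of -0.0057 (-0.14 to 0.13) and -0.048 (-0.14 to 0.045). The cortex value of Ncstn was 0.014 with animals 60 and 64 left out. The genotypes of both genes overlapped in both regions.

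The genotype effect was then compared between the regions. The difference of the effects, hippocampus minus cortex, passed for 0 of the 8 genes and for 0% of all genes, where 260 genes had an unadjusted p under 0.05 (limma). For Bace2 it was -0.10 with an interval of -0.39 to 0.19, and for App -0.016 with an interval of -0.16 to 0.12 (0.00037 with animals 60 and 64 left out). Both intervals include differences of either sign.

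Genes next to Bace2 and next to App on chromosome 16 give the copy-number setting. Of 11 listed segment genes around Bace2, 2 rose in hippocampus and 0 passed in cortex, against calls for 0.114% and 0.00494% of all genes. The median log2 difference of the 11 was 0.13 in cortex, with 7 above 0, and 0.23 in hippocampus, with all 11 above 0. Over all genes 48.5% were above 0 in cortex and 46.3% in hippocampus. Dscam, a cell adhesion gene beside Bace2, rose in hippocampus from 9.56 ± 0.0977 (SD, n = 5) to 10.04 ± 0.0868 (SD, n = 6), a difference of 0.48 ± 0.0602 (SE; limma, adjusted p = 0.0209). Pcp4, a calmodulin-binding peptide gene, rose there by 0.28 ± 0.0451 (SE; limma, adjusted p = 0.0462). In animal means Dscam rose as well (0.48, limma, adjusted p = 0.0495). The differences of Bace2 itself, 0.33 and 0.22, lay within the span of these neighbours. It ran in cortex from -0.18 to 0.57 and in hippocampus from 0.061 to 0.48. The low ends were Tmprss2 in cortex and Ripk4 in hippocampus, with WT means of 5.84 and 5.18, below the array medians. Fam3b, Mx1 and Mx2 lay lower still in hippocampus, and Mx2 had a difference of 0.43 there. Levels also depend on the probes, and without detection calls it is not known whether these genes were expressed. Leaving out animals 60 and 64, the 11 genes had 2 calls in cortex, 3 in hippocampus and 3 in animal means, all higher in Ts1Cje.

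Of 14 listed genes around App, 0 passed in either region. Their median difference was 0.070 in cortex, with 13 of 14 above 0, and -0.036 in hippocampus, with 5 of 14 above 0. Over all genes these shares were 48.5% and 46.3%. The signs thus differed between regions, and the differences had no call in either.

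**Figure D3:**
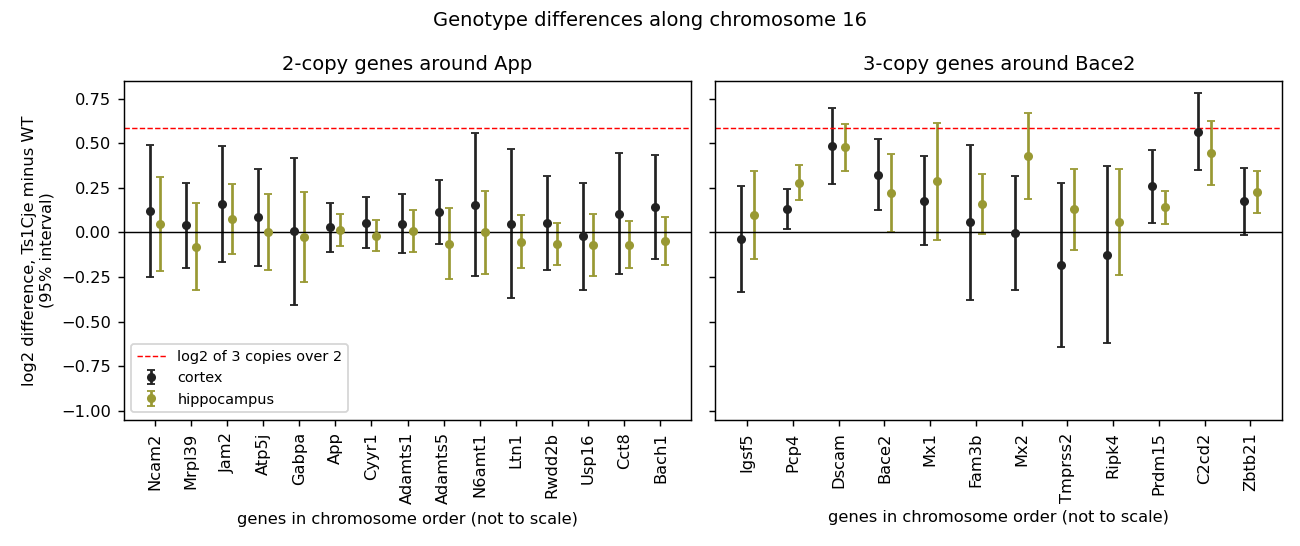
Log2 difference between Ts1Cje and WT for genes in chromosome order around App (left, 2 copies) and around Bace2 (right, 3 copies), in cortex (black) and hippocampus (olive). Points are limma estimates, bars 95% intervals, the dashed line is 0.585, and spacing is not to scale. Medians of the neighbours are 0.070 and -0.036 around App and 0.13 and 0.23 around Bace2.

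The rest of the App pathway was read from 5 further lists. None of their 52 measured genes passed the test by genotype in cortex, hippocampus or animal means (limma). Among the other sheddases and γ-secretase subunits (5 of 5 measured), Aph1c, an Aph1 subunit, had the lowest p in both regions, with differences of 0.10 in cortex and -0.13 in hippocampus. Among the cytoplasmic adaptors of App (8 of 8), Apbb3 had the lowest p in cortex, at 0.11, and Apbb1 in hippocampus, at -0.026. The medians of the lists were 0.040 and 0.026 in cortex and -0.019 and -0.012 in hippocampus, close to 0.

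Sorting and modulating genes (17 of 18 measured) had a median of 0.014 in cortex and -0.011 in hippocampus. The lowest p went to Gsap, the γ-secretase activating protein gene, in cortex (0.087) and to the sorting receptor Sorl1 in hippocampus (-0.051). Amyloid β degradation and clearance genes (9 of 9) had medians of 0.044 and -0.021. Clu, the chaperone clusterin, had the lowest p of the list in hippocampus, with a difference of -0.12. Its unadjusted p was 0.017 and its adjusted p 0.9996 (limma). Ece2, an endothelin-converting enzyme, had 0.10 in cortex.

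Other substrates of the secretases (13 of 13) had medians of 0.017 and -0.014. Notch2, a γ-secretase substrate, had the lowest p of the list in hippocampus, with a difference of -0.20 and an adjusted p of 0.9996 (limma). Nrg1, a Bace1 substrate, had 0.21 in cortex.

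Markers of cell types were set beside the genotype comparison. Of 46 listed markers 42 were measured, and 0 passed by genotype in cortex, hippocampus or animal means (limma). Summed marker signals overlapped between genotypes for each of the 9 cell types in both regions. The choroid plexus markers varied most among cortex arrays. Their summed log2 signal was 9.77 to 12.83 in WT and 9.40 to 12.72 in Ts1Cje cortex, against 13.16 to 13.38 and 12.91 to 13.46 in hippocampus. Neuronal markers lay between 14.73 and 14.93 in WT and between 14.81 and 14.95 in Ts1Cje cortex. In hippocampus the choroid plexus markers had a median log2 difference of -0.20, with 2 of 6 above 0. The hippocampal neuron markers had one of -0.11, with 1 of 4 above 0, and the astrocyte markers one of -0.092, with 0 of 5 above 0. The 5 measured oligodendrocyte markers had a median of 0.070, with all 5 above 0, and the 4 endothelial markers one of -0.046, with 0 above 0. The remaining lists had medians there from -0.025 (microglia) to 0.051 (striatal neurons). Over all genes 46.3% were above 0 in this region. The part of cell composition in the gene values was not tested.

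The second question was how the regions differ, where region and RNA kit cannot be told apart in any value below. After centring, App and Aplp1 were higher in hippocampus than in cortex and the other 6 genes did not pass, but the direction for App depended on the scaling. The test called 41.4% of all genes, 4097 higher and 4282 lower in hippocampus (299 and 18986 on the deposited values), so a call of 2 in 8 genes is no larger share than the background.

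App had centred means of 5.25 ± 0.127 (SD, n = 5) in WT and 5.27 ± 0.0654 (SD, n = 6) in Ts1Cje cortex, and 5.42 ± 0.0516 (SD, n = 5) and 5.45 ± 0.0348 (SD, n = 6) in hippocampus. The difference was 0.18 (interval 0.097 to 0.26; limma, adjusted p = 0.000799), with 11 of 11 animals higher in hippocampus. After quantile normalization of all arrays it was -0.10 (-0.16 to -0.037; adjusted p = 0.00919, limma), with 0 of 11 animals higher. On the deposited values it was -0.45, where the median of all genes was -0.63. No direction is therefore given for App. Within genotypes the centred difference was 0.17 in WT and 0.18 in Ts1Cje.

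Aplp1 was 0.14 higher in hippocampus after centring (0.063 to 0.22; limma, adjusted p = 0.00447), with 11 of 11 animals higher, by 6.84e-05 to 0.289. With quantile normalization the difference was 0.024 (adjusted p = 0.659, limma), and on the deposited values -0.49. Aplp2 was -0.011 after centring (-0.081 to 0.060) and -0.12 with quantile normalization (adjusted p = 0.00162, limma).

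Of the secretase genes, Bace1 had a difference of 0.066 after centring (-0.018 to 0.15; limma, adjusted p = 0.204) and of 0.093 with quantile normalization (adjusted p = 0.0122, limma). It was higher in hippocampus in 10 of 11 animals under both scalings and in 0 of 11 on the deposited values. Bace2 had -0.074 after centring (-0.22 to 0.071), and Adam10 -0.088 (-0.26 to 0.081). Once animals 60 and 64 were left out Adam10 was lower in hippocampus by the test, at -0.16 (limma, adjusted p = 8.43e-05). Psen2 had 0.039 (-0.066 to 0.14), and 0.082 (-0.0014 to 0.17) with these animals left out. Ncstn had -0.0015 (-0.074 to 0.071), 0.034 with quantile normalization and -0.034 with the animals left out, and its sign is not settled.

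**Figure D4:**
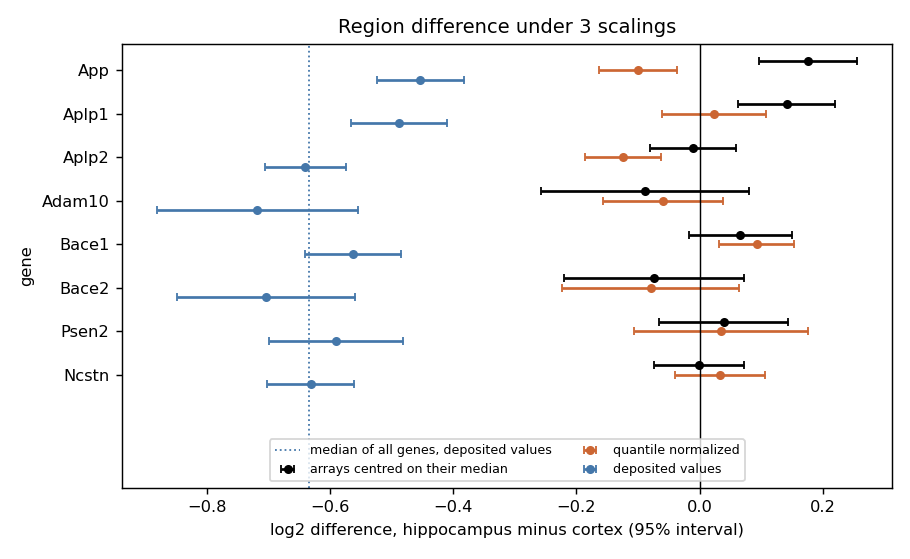
Log2 difference, hippocampus minus cortex, of each measured gene under 3 scalings: arrays centred on their median (black), quantile normalized (orange) and deposited values (blue). Bars are 95% intervals over 22 arrays, and the dotted line is the median of all genes on the deposited values, -0.63. App is at 0.18, -0.10 and -0.45, so its direction changes with the scaling.

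The lists of other pathway genes are read against the 41.4% of all genes called between regions, 20.2% higher and 21.2% lower in hippocampus, and the lists' shares are a description. Of the other secretase substrates 3 of 13 were higher and 6 lower in hippocampus, led by Nrg1 (-1.44; limma, adjusted p = 6.02e-12) and the adhesion gene Chl1 (0.50, adjusted p = 0.00187). Of the degradation genes 3 of 9 were higher and 2 lower, led by the amyloid-degrading peptidases neprilysin, Mme (-0.80), and Ece1 (-0.45). Of the sorting genes 5 of 17 were higher and 3 lower, led by Rtn4 (-0.35) and Sort1 (0.29).

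Of the other sheddases and γ-secretase subunits 2 of 5 were higher and 1 lower, among them Aph1b (0.27) and Adam9 (-0.24). Of the adaptors 2 of 8 were higher and 2 lower, among them Apba2 (0.22) and Apbb2 (-0.19). The named differences kept their sign with quantile normalization. On the deposited values Aph1b, Apba2, Sort1 and Chl1 were below 0, where nearly every gene was. Neighbours on chromosome 16 also differed between regions after centring. Around App 1 of 14 genes was higher and 4 lower (Adamts1 at 0.74, Adamts5 at -0.48). Around Bace2, 2 of 11 were higher and 6 lower (Fam3b at -0.43, Ripk4 at 0.39). Fam3b and Ripk4 had WT means of 5.16 and 5.51 in cortex and 4.04 and 5.18 in hippocampus, below the array medians. On the deposited values their differences were -1.06 and -0.24, and no detection calls were given.

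Markers of the dissected regions differed in the same comparison. The 4 measured hippocampal markers were all higher in hippocampus with a median of 1.56, and the 5 cortical markers all lower with a median of -1.20. The 6 choroid plexus markers were all higher in hippocampus, with a median of 2.05, and the 3 measured striatal markers all lower (-1.70). Of the 5 astrocyte markers 4 were higher and 1, Aldh1l1, lower (-0.19), and of the 5 neuronal markers 3 were higher and 1 lower. Their part in the region differences of App and its secretases was not tested.

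Patterns over the arrays were described by Pearson r, after centring each array on its median and then on the mean of its region. The points share arrays, animals and array-wide shifts, and the difference between genotypes was left in the values. Over all 22 arrays the genes most like App were Mbnl1 (r = 0.956), Elmo1 (0.941), Psma7 (0.936), Rb1cc1 (0.931) and Clasp2 (0.931). Over the 18 arrays without animals 60 and 64 the values were 0.846, 0.646, 0.574, 0.721 and 0.706, and Mbnl1 alone stayed among the first 5. All 5 values were lower once the arrays that stood apart were left out.

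The genes most like Bace2 were Tcim (r = 0.803), Gart (0.735), Pigp (0.725), Donson (0.718) and Gsap (0.713). Gart, Pigp and Donson lie on chromosome 16, in the triplicated segment. Over the 18 arrays the values were 0.866, 0.779, 0.719, 0.795 and 0.711, and Tcim stayed among the first 5.

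Within the group, App correlated with Adam10 at r = 0.782, with Bace1 at 0.719, with Aplp2 at 0.680, with Psen2 at -0.628 and with Ncstn at 0.448 over 22 arrays. In the 18 arrays these were 0.246, 0.0906, 0.577, -0.166 and -0.204. Bace2 had r of 0.106 with App and 0.230 with Bace1, and -0.014 and 0.198 in the 18 arrays. Of these pairs with App, that with Aplp2 changed least when the arrays that stood apart were left out, and that with Ncstn changed sign.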

How the data were processed

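RNA from 22 tissue samples was hybridised to Affymetrix mouse gene 1.0 ST arrays, and per the labels only RNA with an integrity number above 9 was used. The deposited table holds log2 signals that the authors made with RMA (background correction, normalization and summary of probes), per the submitters' processing notes; the sources used here do not name its version or the probe definition, nor say if the regions were processed jointly. Rows carry Entrez gene numbers, named through the platform annotation and RefSeq (GRCm38.p6). Of 21225 features 20239 had a symbol and were tested, without a filter on dim genes.

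Log2 values were fitted with limma 3.58.1 in R 4.3.3 (lmFit, eBayes, two-sided, Benjamini-Hochberg adjustment across the 20239 genes, with a call at an adjusted p under 0.05), and the code was tested on simulated data. Genotype was compared within each region and in animal means. The region comparison and the difference of the genotype effects used all 22 arrays in 4 groups, the former with each array centred on its median. Animals are the replicates. The 2 fits on all 22 arrays took the 2 arrays of an animal as independent, and the animal was a block only in an alternative. The members, lists, rules and alternatives were chosen with earlier results of these data known. From each list the genes called by genotype were named, or else that with the lowest p per comparison, and the 2 largest called region differences; likeness names 5 genes by r. Alternatives changed the prior, array weights, normalization, centring, filter, features tested, threshold, model, replicate block and animals included.

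Arrays of the same animal number came from the same animal. Their deviations from the group means correlated at r from 0.0523 to 0.761 (median 0.265). The titles of 2 arrays give animal 60 where the descriptions give WT 61; 61 is also the number of a Ts1Cje animal, and the title was followed. These are the WT arrays that stood apart.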

Additional observations from a re-analysis of the deposited data

Results flagged for a closer look

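In 6 of 32 combinations of gene and group tested, 1 array lay far from the others of its group (Dixon's ratio of the gap to the range above its 95% limit). The limit would pick out about 1 in 20 groups if values were normal and groups independent. Neither holds here, because the groups share arrays and several WT cortex values of Adam10 and Psen2 are equal. The count was therefore not set against chance. All 6 were arrays of WT animal 60 or Ts1Cje animal 64.

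In WT cortex the array of animal 60 was low for App (12.63, others 12.82 to 12.88, ratio 0.762), Adam10 (9.42, others 9.91 to 9.94, ratio 0.951) and Ncstn (9.28, others 9.35 to 9.37, ratio 0.733). It was high for Psen2 (8.35, others 8.06 to 8.07, ratio 0.948). The array of animal 64 was low for Adam10 in Ts1Cje cortex (9.34, others 9.85 to 10.07, ratio 0.698) and in Ts1Cje hippocampus (8.90, others 9.11 to 9.21, ratio 0.661). Bace2 was not among them, and its difference was larger without both animals, at 0.39 in cortex and 0.27 in hippocampus. What sets these arrays apart was not tested.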

How the results depend on the processing

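No member passed by genotype within a region under any alternative, and Bace2 stayed above 0 in all of them. Array weights turned the animal-mean count from 0 to 1 member (Bace2, log2 difference 0.32, limma adjusted p = 0.0235). The region count of 2 members became 5 with array weights and 8 on the deposited values. With quantile normalization App and Aplp2 passed as lower in hippocampus and Bace1 as higher, and Aplp1 did not pass. Without animals 60 and 64, 2 members (App and Aplp1) were higher and 1 (Adam10) lower. Region differences reversed with quantile normalization for App (-0.10), and on the deposited values for App (-0.45), Aplp1 (-0.49), Bace1 (-0.56) and Psen2 (-0.59); the median gene lies at -0.63 there, and for App with quantile normalization the cause was not tested. Ncstn, not called under either scaling, went from -0.0015 to 0.034 with quantile normalization. Calls over all genes rose in number without animals 60 and 64, from 1 to 32 in cortex, 23 to 37 in hippocampus, 12 to 52 in animal means and 8379 to 13253 between regions, and to 50, 54, 68 and 13685 with array weights. A single fit of all arrays called 23 in cortex, quantile normalization 12 in cortex and 31 in animal means, and the deposited values 19285 between regions. Of the 5 genes most like App, 1 remained without animals 60 and 64 and 3 on the deposited values. Of those most like Bace2, 1 remained without these animals. With the animal as a replicate block over all arrays the Bace2 differences were 0.33 ± 0.109 (SE) in cortex and 0.22 ± 0.109 (SE) in hippocampus, and the block changed no call of the members. Bace2 lies near the middle of the arrays' signals, and no detection calls were given.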
